A study of Mus musculus with 12 samples.

Results

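The genes described here are the chemokines and their receptors, 52 of the 47643 genes in the deposited tables. They were taken by symbol: protein-coding genes named Ccl, Cxcl, Cx3cl or Xcl with a number as ligands, and Ccr, Cxcr, Cx3cr, Xcr or Ackr with a number, together with Ccrl2, as receptors. At least 60 counts summed over 12 libraries were required. This left 34 ligands and 18 receptors. Another 9 protein-coding genes with matching symbols had fewer counts (Ccl21b, Ccl26, Ccl27b, Ccr10, Ccr1l1, Ccr3, Ccr4, Ccr6 and Cxcr1), and 3 matching symbols were not annotated as protein coding (Ccl19-ps1, Ccl19-ps3 and Cxcl11).

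The study sequenced bulk RNA from pancreatic tumors of mice, 6 libraries from a group labelled Young tumor and 6 from a group labelled Old tumor. Both groups carry the same cell line, KPC4662, a mouse pancreatic cancer line, and all are labelled as epithelial. Ages in weeks or months, strain, sex, any further treatment and the site where the cells were implanted are not stated in the labels, so age is known only as young or old. One tumor cell line stands for the disease in both groups, and the sources do not say whether each tumor piece came from its own mouse, so p-values measure the spread between pieces.

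Chemokines are small secreted or membrane-anchored proteins that direct the movement of leukocytes. They act through receptors that couple to inhibitory G proteins, and the atypical receptors bind chemokines without that coupling. Inflammatory chemokines are induced by cytokines and microbial products, homeostatic chemokines are made steadily in stroma and lymphoid tissue, and pancreatic tumors are known for chemokine-driven recruitment of monocytes, macrophages and neutrophils.

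The sequences shown first belong to Xcl1, Ccl1 and Cxcl9, the tested members with the lowest fold changes, old over young, to Cxcl10, the other interferon-inducible ligand, and to a trio of neutrophil-attracting ligands. Of the 52 members, 40 had a promoter entry in the RefSeq table for GRCm38.p6 (25 ligands and 15 receptors). For each, the 250 bases before the annotated start were searched. Those of 4 ligands are printed 5′ to 3′ on the gene's own strand, with capitals marking matched motifs.
Xcl1 (chr1:164935523-164935772, minus strand): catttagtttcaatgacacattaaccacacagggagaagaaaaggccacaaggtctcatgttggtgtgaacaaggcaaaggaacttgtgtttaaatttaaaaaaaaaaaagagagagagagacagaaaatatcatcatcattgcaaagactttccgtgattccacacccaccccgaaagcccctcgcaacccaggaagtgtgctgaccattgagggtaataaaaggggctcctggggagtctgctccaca
Ccl1 (chr11:82179813-82180062, minus strand): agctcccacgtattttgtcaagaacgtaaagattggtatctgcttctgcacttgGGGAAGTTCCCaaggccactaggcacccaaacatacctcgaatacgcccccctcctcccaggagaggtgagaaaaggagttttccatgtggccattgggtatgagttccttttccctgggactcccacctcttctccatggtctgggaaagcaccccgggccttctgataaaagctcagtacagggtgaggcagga
Cxcl9 (chr5:92328080-92328329, minus strand): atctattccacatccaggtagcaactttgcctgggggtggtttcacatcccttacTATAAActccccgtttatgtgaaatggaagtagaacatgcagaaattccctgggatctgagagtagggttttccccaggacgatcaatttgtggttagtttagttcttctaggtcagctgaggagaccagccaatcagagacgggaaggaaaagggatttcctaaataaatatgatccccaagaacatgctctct
Cxcl10 (chr5:92348890-92349139, minus strand): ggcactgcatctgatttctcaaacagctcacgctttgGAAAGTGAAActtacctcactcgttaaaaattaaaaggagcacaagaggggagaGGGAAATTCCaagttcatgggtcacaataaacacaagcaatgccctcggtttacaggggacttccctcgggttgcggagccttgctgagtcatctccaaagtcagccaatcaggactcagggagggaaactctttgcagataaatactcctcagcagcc

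Xcl1 held none of the 4 motifs searched. Ccl1 and Cxcl10 held the NF-kB motif, GGGA followed after any 2 bases by TTCC and searched on both strands, which 1.21% of the 32851 promoters in the table held. In Ccl1 the run in capitals is a match on each strand, the pair overlapping. Cxcl10 also held the interferon-stimulated response element, GAAA repeated after any 2 bases, on the forward strand, found on either strand in 2.98% of promoters, and Cxcl9 held the letters TATAAA, searched on the forward strand alone and found in 7.59%. Over all members the NF-kB motif was in 5 of 25 ligand promoters (Ccl1, Cxcl1, Cxcl2, Cxcl3 and Cxcl10) and in 0 of 15 receptor promoters. The response element was in 3 ligands (Ccl19, Cxcl10 and Cxcl14) and 0 receptors, the gamma-activated motif, TTC followed after any 3 bases by GAA on either strand, in 2 ligands (Ccl17 and Cxcl14) and 0 receptors against 7.02% of all promoters, and TATAAA in 9 ligands and 3 receptors. In the 4 printed promoters no 2 different motifs overlapped, and a match describes the letters and not a bound site.

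Cxcl1, Cxcl2 and Cxcl3, which attract neutrophils through Cxcr2, lie in one cluster on chromosome 5. Windows of 41 bases around their NF-kB match are shown, the shared run in capitals.
Cxcl1 (chr5:90891159-90891199, plus strand): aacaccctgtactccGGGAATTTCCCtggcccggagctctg
Cxcl2 (chr5:90903787-90903827, plus strand): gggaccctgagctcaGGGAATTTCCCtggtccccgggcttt
Cxcl3 (chr5:90786013-90786053, plus strand): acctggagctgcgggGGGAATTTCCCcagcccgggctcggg

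The same 11 letters stood in all 3, ending 61 bases before the annotated start in Cxcl1, 87 in Cxcl2 and 63 in Cxcl3. Flanking letters differ between the windows. The 3 genes were not at one level: mean TPM (the RSEM transcript level scaled by gene length and library) was 9.73 for Cxcl3, 5.79 for Cxcl2 and 1.03 for Cxcl1. Counts of Cxcl2 and Cxcl3 were fractional in 9 libraries each, reads having been divided with another gene, so their levels are uncertain.

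Library totals were 17754645 to 24097599 counts. One library stood apart before any comparison of ages. Old tumor 1 had the highest level of 21 of the 52 members, 12 ligands and 9 receptors, and its summed ligand TPM of 1686 compares with 614 to 1047 in the other 11 libraries. It also had the highest summed level of the 10 fibroblast markers, at 9697 CPM (counts scaled to the library total, itself scaled by TMM) against 1269 to 4200 elsewhere, of the 10 endothelial markers, at 438 CPM, and of the 13 monocyte and macrophage markers, at 2396 CPM against 1046 to 1735. The 8 epithelial tumor cell markers that check the label were high in every library, with sums of 5039 to 9879 CPM, and none was at 0. Their lowest sum, 5039 CPM, was that of Old tumor 1. Values without Old tumor 1 are also given for many of the members and groups. That library was picked for its high levels of these same genes, so leaving it out lowers most old levels. In bulk tumors, fewer cells of a type and less RNA per cell cannot be told apart.

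**Figure D1:**
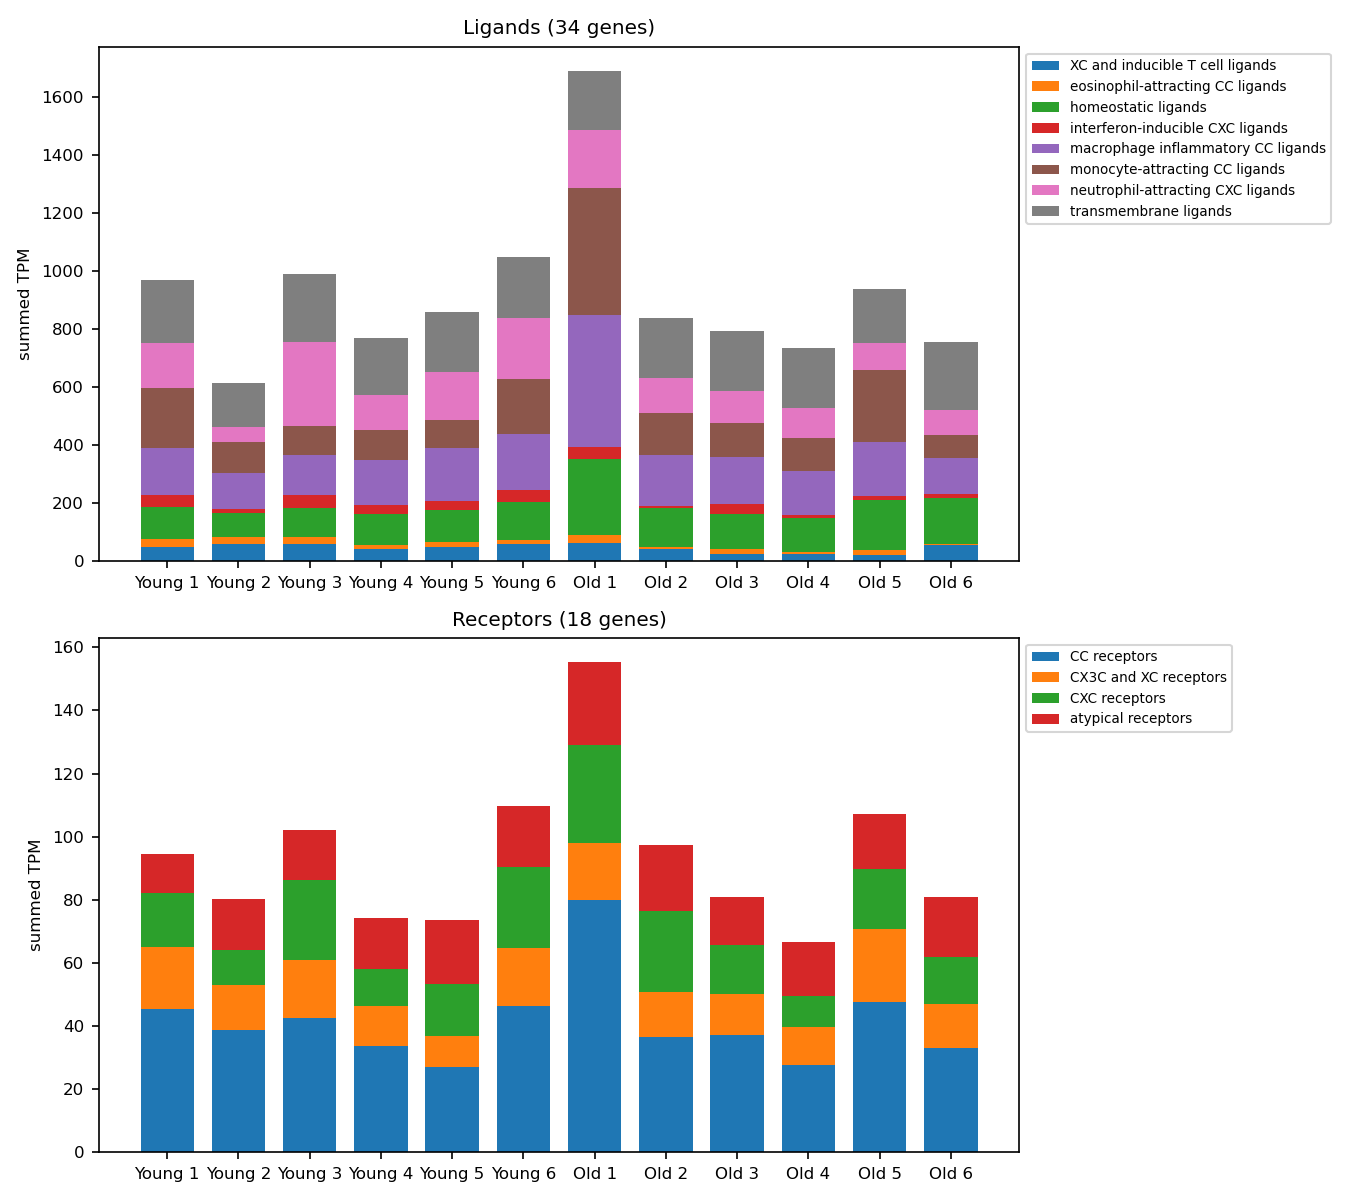
Summed TPM of the 34 ligands (upper panel) and 18 receptors (lower panel) in each library, stacked by functional group. Old tumor 1 stands highest in both panels, at 1686 TPM for ligands and 155 TPM for receptors, and the other libraries span 614 to 1047 TPM and 66.5 to 110 TPM.

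The ligand RNA was concentrated in a few genes. Cxcl16, a membrane-anchored ligand of Cxcr6, had the highest mean level at 158 TPM over the 12 libraries. Next came Ccl6, a macrophage-made CC chemokine, at 133 TPM, and Cxcl5, which recruits neutrophils, at 125 TPM. Ccl8, a CC chemokine grouped here with the monocyte-attracting ligands, followed at 113 TPM. Together Cxcl16, Ccl6, Cxcl5 and Ccl8 made up 51.7% to 61.4% of ligand TPM in a library. The order is loose, and differences between these genes were not tested. In old tumors the means ± SD (n = 6) were 154 ± 23.3 TPM for Cxcl16, 152 ± 96.5 TPM for Ccl6, 104 ± 35.7 TPM for Cxcl5 and 147 ± 113 TPM for Ccl8. Old tumor 1 widened the spread of Ccl6 and Ccl8, at 345 and 356 TPM. The other old libraries had 80.8 to 136 TPM of Ccl6, 55.6 to 197 TPM of Ccl8 and 112 to 183 TPM of Cxcl16. In young tumors the order was another, with 161 ± 25.0 TPM for Cxcl16, 146 ± 76.3 TPM for Cxcl5, 113 ± 18.9 TPM for Ccl6 and 79.1 ± 33.5 TPM for Ccl8. Counts of Cxcl16 were fractional in all 12 libraries, which means that reads were divided with another gene, so its level is uncertain. Receptors were lower on the same scale, among them Cx3cr1 at 14.9 TPM, Ccr1 at 14.3 TPM and Ackr3 at 13.7 TPM. A mean of at least 10 TPM was reached by 19 ligands and 5 receptors, 12 ligands and 6 receptors lay between 1 and 10 TPM, and 3 ligands and 7 receptors lay under 1 TPM.

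The design compares tumors of old and young mice. Of the 52 members, 50 passed the filter on low counts and were tested, 33 ligands and 17 receptors, with Ccl19 and Ccr8 left untested. None was past an adjusted p of 0.05 in edgeR's quasi-likelihood test with Benjamini-Hochberg adjustment over all 16013 tested genes. In that fit 362 genes (2.26%) passed, 127 higher in old (0.793%) and 235 lower in old (1.47%). At an unadjusted p under 0.05 there were 6 ligands and 0 receptors, against 3381 of all genes (21.1%). Of the 6, Xcl1, Ccl1 and Ccl20 were on the lower side, where 10.4% of all genes lay, and Cxcl12, Cxcl13 and Cxcl14 on the higher side, where 10.7% lay. DESeq2 with its own size factors called 2 ligands, Xcl1 and Cxcl13, and 0 receptors, against 1433 of the 14941 genes to which it gave an adjusted p (9.59%). Xcl1 was on the lower side, with 5.78% of those genes, and Cxcl13 on the higher side, with 3.81%. No tested member had young and old libraries that did not overlap, against 475 of all genes (2.97%).

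By median, ligands and receptors sat slightly under all genes. The median log2 fold change, old over young, was −0.16 for the 33 ligands, of which 20 were below 0, and −0.08 for the 17 receptors, of which 10 were below 0. Over all tested genes the median was 0.03 and 45.8% were below 0. These genes also varied more between libraries of 1 age: the median SD of log2 CPM within an age was 0.642 for ligands and 0.653 for receptors against 0.237 for all genes, at median levels of 2.48, 1.23 and 4.37 on the log2 CPM scale. The median SE of the fold change was 0.331, 0.378 and 0.136 on the log2 scale. Whether the lower level of these genes accounts for that spread was not tested.

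**Figure D2:**
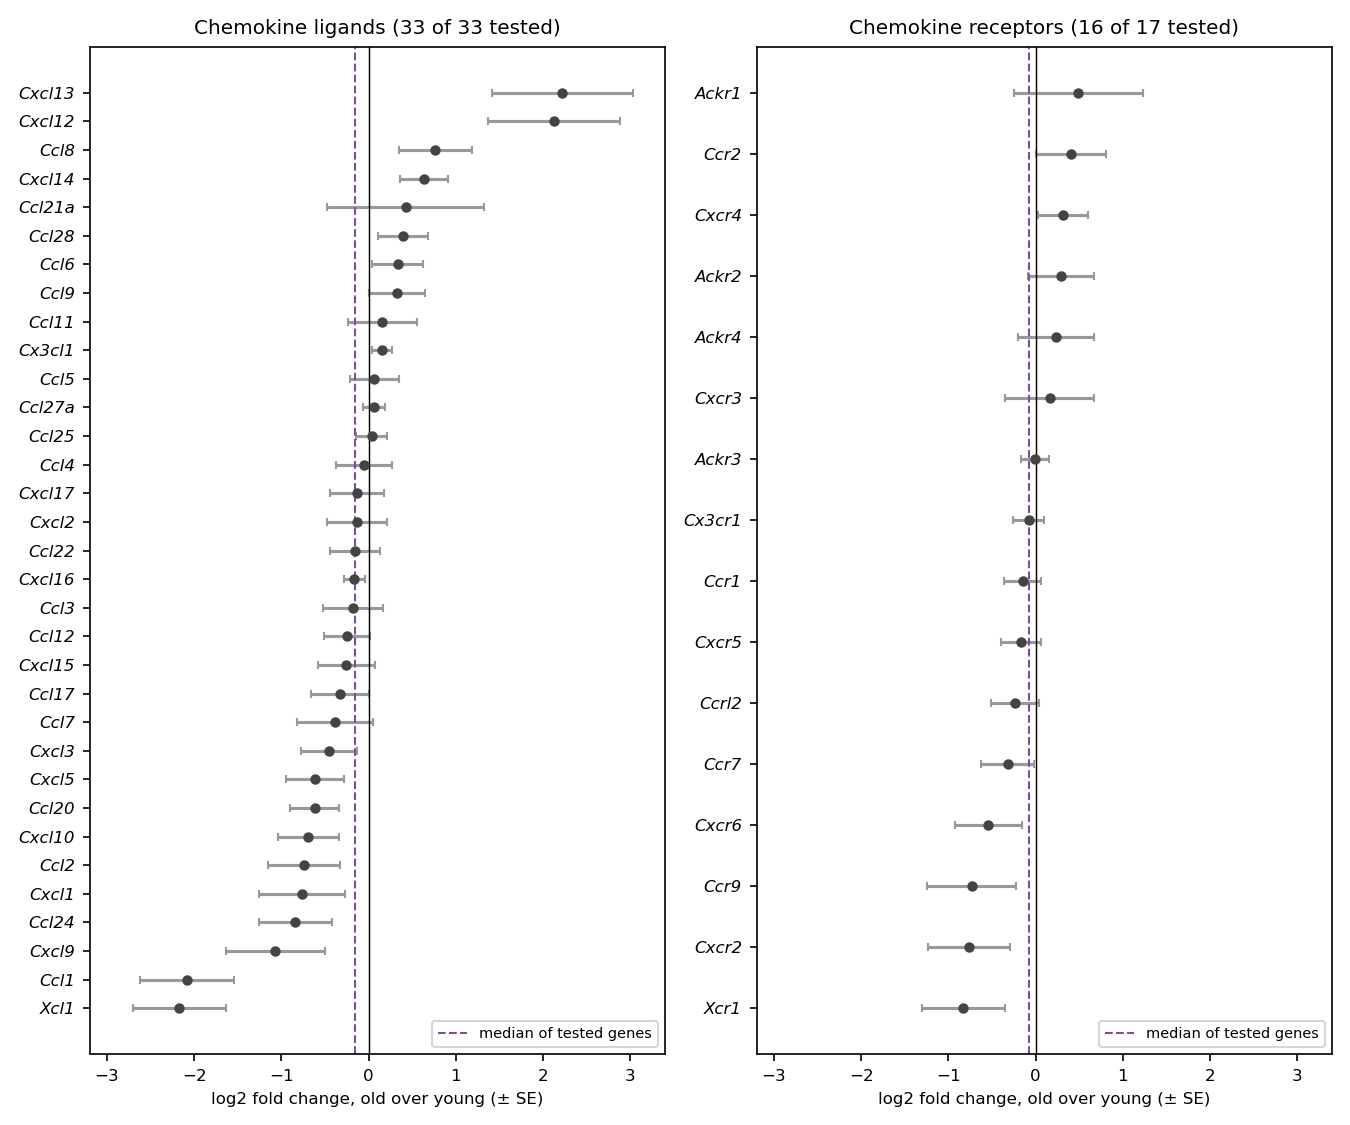
Log2 fold change, old over young, with SE for the 33 tested ligands (left) and 16 of the 17 tested receptors (right), sorted by value, the dashed line being the median of all tested ligands or receptors. Ligands run from −2.17 for Xcl1 to 2.22 for Cxcl13 and receptors from −0.83 for Xcr1 to 0.49 for Ackr1.

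Xcl1 and Ccl1 had the lowest fold changes of the tested ligands. They belong to a group of 5 that act on lymphocytes and dendritic cells (with Ccl17, Ccl20 and Ccl22), and all 5 were below 0, with a median log2 fold change of −0.62. Xcl1, made by natural killer cells and activated CD8 T cells and read by Xcr1 on cross-presenting dendritic cells, was at 1.01, 2.51 and 3.98 CPM (lowest, median and highest of 6) in young tumors. In old tumors it was at 0.041, 0.512 and 1.25 CPM. All 6 old libraries lay under the young median, while Old tumor 1 overlapped the lowest young library. The raw counts were small, 21 to 86 in young and 1 to 30 in old. The log2 fold change was −2.17 ± 0.53 (SE), with an adjusted p of 0.0509 by edgeR's quasi-likelihood test, just outside the threshold.

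Whether Xcl1 passed turned on the processing. Across 23 other settings its log2 fold change ran from −2.91 to −1.67 and its adjusted p from 0.0015 to 0.118, and it passed in 6 of them. Without Old tumor 1 it was −2.63 ± 0.52 (SE), with an adjusted p of 0.016 in edgeR. Ccl1, a T cell product that acts on Ccr8, was at 0.502, 0.832 and 1.73 CPM in young and 0, 0.189 and 0.518 CPM in old. Old tumor 5, the highest old library, overlapped the lowest young one, and the other 5 old libraries lay below all young ones. Old tumor 2 had no count of it, which allows up to 0.124 CPM. The log2 fold change was −2.08 ± 0.54 (SE), with an adjusted p of 0.0559 in edgeR, and it passed in 3 of 22 other settings, among them without Old tumor 1 (adjusted p 0.044). Its annotated span on chromosome 11 runs from 82176657 to 82305690, and no source used here says whether the counting used strand, so reads of an overlapping gene cannot be told apart from its own.

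The other 3 of the group were closer to 0. Ccl20, which attracts Ccr6-bearing cells, was at 2.98, 4.07 and 6.34 CPM in young and 1.3, 2.36 and 4.58 CPM in old, a log2 fold change of −0.62 ± 0.28 (SE) with an adjusted p of 0.222 in edgeR. Young and old overlapped, with 5 of 6 old libraries under the young median. Ccl17 and Ccl22, the Ccr4 ligands, had log2 fold changes of −0.33 and −0.16.

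Markers of the lymphocytes that make Xcl1 and Ccl1 were mostly on the same side. Of the 13 T cell markers, 12 were below 0, 0 passed in edgeR, 5 had an unadjusted p under 0.05 and 3 passed in DESeq2 (Cd3d, Cd4 and Cd8a). Over all genes 45.8% were below 0, and 10.4% were lower in old at an unadjusted p under 0.05. In DESeq2 5.78% of the genes given an adjusted p passed as lower. Their summed level was 30.4 to 63.5 CPM in young and 17.1 to 51.6 CPM in old. Of 9 natural killer markers, 6 were tested, 5 were below 0 and 1 fell, Gzma, a cytotoxic granule protease, by 2.14 on the log2 scale (SE 0.45, adjusted p 0.035 in edgeR). In that test 1.47% of all genes passed as lower in old. The natural killer sum was 16.2 to 32.0 CPM in young and 10.2 to 18.6 CPM in old. That difference leaned on Gzma, with a mean of 8.47 CPM in young and 1.91 CPM in old. Eomes was at 6.36 and 6.14 CPM, and Klrk1 was above 0, at 0.34 on the log2 scale. The untested markers were low and did not share a direction. Means in young and old were 0.0385 and 0.136 CPM for Ncr1 and 0.408 and 0.554 CPM for Prf1. Klrb1c went the other way, at 0.474 and 0.282 CPM. No marker of either list was at 0 in all libraries, and the part of these lists in the Xcl1 and Ccl1 values was not tested. Gzma kept its call in 12 of 23 other settings.

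The interferon-inducible ligands Cxcl9 and Cxcl10, which recruit Cxcr3-bearing T and natural killer cells, were both below 0. Cxcl9 was at 10.6, 30.1 and 34.9 CPM in young and 1.94, 8.41 and 30.0 CPM in old, with all 6 old libraries under the young median. Old tumors 1 and 3, at 27.1 and 30.0 CPM, sat among the young libraries, and Young tumor 2, at 10.6 CPM, sat among the old. Old over young, the log2 fold change was −1.07 ± 0.57 (SE), with an adjusted p of 0.299 in edgeR. Cxcl10 showed the same libraries apart, at 4.77, 13.5 and 17.2 CPM in young and 4.25, 6.10 and 15.1 CPM in old. Its lowest young library was again Young tumor 2 and its highest old libraries were again Old tumors 1 and 3. Old over young, the log2 fold change was −0.69 ± 0.35 (SE), with an adjusted p of 0.276 in edgeR, and neither gene passed in any of 23 other settings. T cell marker sums in Old tumors 1 and 3 were 51.6 and 41.5 CPM, against 17.1 to 24.7 CPM in the other 4 old libraries, and in Young tumor 2 the sum was 32.1 CPM, where the other young libraries had 30.4 to 63.5 CPM; their part in the Cxcl9 and Cxcl10 values was not tested.

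**Figure D3:**
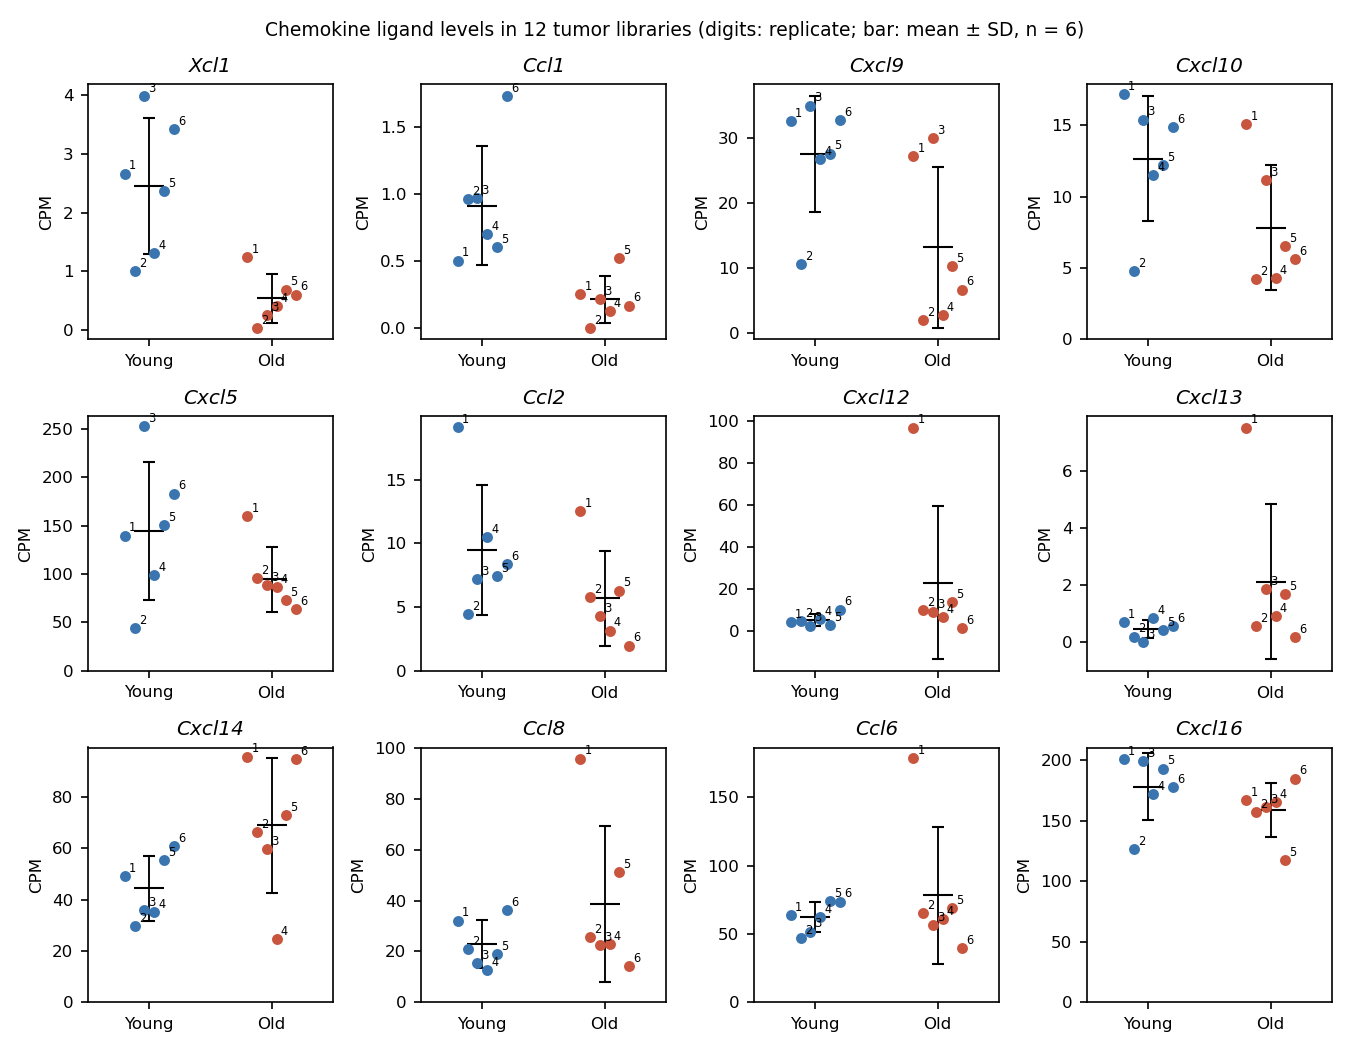
CPM of 12 ligands in each library, young in blue and old in red, with replicate numbers beside the points and bars for mean ± SD (n = 6 per age). Xcl1 and Ccl1 are mostly low in old tumors, while Cxcl12, Cxcl13, Ccl8 and Ccl6 have their highest value in Old tumor 1.

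The 5 neutrophil-attracting CXC ligands were all below 0, with a median log2 fold change of −0.45. Cxcl5, by far the most abundant of them, was at 44.2, 145 and 253 CPM in young and 63.9, 87.5 and 160 CPM in old. Young libraries spanned the wider range, including both the lowest value, in Young tumor 2, and the highest, in Young tumor 3. The log2 fold change was −0.62 ± 0.33 (SE), with an adjusted p of 0.301 in edgeR. Cxcl1, Cxcl3, Cxcl15 and Cxcl2 had log2 fold changes of −0.76, −0.45, −0.25 and −0.13. Cxcr2, the receptor of Cxcl1, Cxcl2, Cxcl3 and Cxcl5, was at 2.50, 6.62 and 15.8 CPM in young and 2.25, 4.56 and 9.03 CPM in old, with a log2 fold change of −0.76 ± 0.47 (SE) and an adjusted p of 0.366 in edgeR. Young tumor 3 was highest for both Cxcl5 and Cxcr2 and also had the highest sum of the 8 neutrophil markers, 156 CPM against 25.7 to 77.9 CPM elsewhere; the part of those markers in these values was not tested.

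Monocyte-attracting and macrophage inflammatory CC ligands did not share a direction. Ccl2, the principal Ccr2 ligand, was at 4.43, 7.90 and 19.1 CPM in young and 1.99, 5.05 and 12.5 CPM in old, with 5 of 6 old libraries under the young median. Its log2 fold change was −0.74 ± 0.41 (SE) and its adjusted p 0.325 in edgeR. The value was −1.15 without Old tumor 1 (adjusted p 0.072 in edgeR) and −0.42 without Young tumor 1. Ccl7 and Ccl12 lay at −0.39 and −0.25. Ccl8, in the same cluster on chromosome 11, was on the other side, at 12.9, 19.9 and 36.4 CPM in young and 14.2, 24.3 and 95.7 CPM in old. The highest value was Old tumor 1, and the next old library was at 51.2 CPM. Its log2 fold change was 0.77 ± 0.42 (SE), with an adjusted p of 0.316 in edgeR, and was 0.24 without Old tumor 1.

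Among the 5 macrophage inflammatory ligands (Ccl3, Ccl4, Ccl5, Ccl6 and Ccl9), 3 were above 0 with all libraries and none without Old tumor 1, where the median log2 fold change went from 0.06 to −0.17. Ccl6 was at 47.3, 63.2 and 74.2 CPM in young and 39.9, 63.2 and 179 CPM in old, the medians being equal at this rounding. Old tumor 1 alone was above the young range. Its log2 fold change was 0.33 ± 0.29 (SE), with an adjusted p of 0.543 in edgeR, and −0.11 without Old tumor 1. The monocyte and macrophage marker sum was 2396 CPM in Old tumor 1 and 1172 to 1735 CPM in young tumors, and its part in the Ccl6 and Ccl8 values was not tested.

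Ccl24 and Ccl11, which recruit eosinophils, lay on opposite sides of 0. Ccl24 was at 4.46, 7.75 and 12.6 CPM in young and 1.71, 3.61 and 8.66 CPM in old, a log2 fold change of −0.84 ± 0.41 (SE) with an adjusted p of 0.263 in edgeR. The ages overlapped, with 5 of 6 old libraries under the young median. Ccl11 had a log2 fold change of 0.16 ± 0.39 (SE). The 8 eosinophil and mast cell markers summed to 22.4 to 44.0 CPM in young and 13.6 to 34.2 CPM in old. Of 6 tested, 5 were below 0 and Kit was above. Means in young and old were 9.18 and 6.28 CPM for Mcpt4 and 9.03 and 6.64 CPM for Ear2. Epx, at 0.00802 and 0 CPM, and Prg2, at 0.0895 and 0.175 CPM, added little. The list mixes both cell types, so its sum cannot be read as a level of eosinophils alone. The part of these markers in the Ccl24 and Ccl11 values was not tested.

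The homeostatic ligands were the group with most members above 0, 7 of 8 tested, with a median log2 fold change of 0.41. Without Old tumor 1, 6 were above 0 and the median was 0.22. Cxcl12, the stromal ligand of Cxcr4 and Ackr3, was at 2.82, 4.77 and 10.4 CPM in young and 1.71, 9.64 and 97.0 CPM in old. A single library set the size of that difference: Old tumor 1, at 97.0 CPM, where the next old library had 13.9 CPM. The log2 fold change was 2.13 ± 0.76 (SE), with an adjusted p of 0.133 in edgeR, and 0.64 ± 0.43 (SE) without Old tumor 1. Cxcl13, which attracts B cells through Cxcr5, was at 0, 0.489 and 0.833 CPM in young and 0.166, 1.3 and 7.54 CPM in old. Old tumor 1 was again highest, the next old library having 1.87 CPM, and Young tumor 3 had no count, which allows up to 0.139 CPM. Old over young, the log2 fold change was 2.22 ± 0.81 (SE), with an adjusted p of 0.139 in edgeR, and 1.18 ± 0.65 (SE) without Old tumor 1.

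Cxcl14, an epithelial and stromal chemokine, did not rest on that library. It was at 29.8, 42.6 and 60.9 CPM in young and 24.6, 69.8 and 95.8 CPM in old, with 5 of 6 old libraries above the young median and Old tumor 4 lowest of all 12. Old over young, the log2 fold change was 0.64 ± 0.27 (SE), with an adjusted p of 0.204 in edgeR, and 0.50 without Old tumor 1. Fibroblast markers ran the same way, with 10 of 10 above 0, 0 past the test in edgeR or DESeq2, 2 at an unadjusted p under 0.05, and sums of 1450 to 3585 CPM in young and 1269 to 9697 CPM in old. Over all genes 21.1% had an unadjusted p under 0.05, with 10.7% on the higher side. B cell markers summed to 2.94 to 8.74 CPM in young and 6.81 to 22.1 CPM in old. The part of either list in the Cxcl12, Cxcl13 and Cxcl14 values was not tested.

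Ccl19 and Ccl21a, the Ccr7 ligands of lymphoid stroma, were uneven. Ccl19 was too low to be tested, with counts of 0 to 4 in young libraries and 6 to 18 in old ones, so the ages did not overlap. In the fit with no filter its log2 fold change was 2.11, with an adjusted p of 0.097 in edgeR. Its counts were fractional in 10 libraries, so its level is uncertain too. Ccl21a, also fractional in 10 libraries, was at 2.17, 4.43 and 7.06 CPM in young and 0, 1.49 and 16.9 CPM in old. Old tumors 1 and 5, at 13.9 and 16.9 CPM, exceeded all young libraries, and the other 4 old libraries lay at or below 2.33 CPM, with no count in Old tumor 2. Its log2 fold change was 0.43 ± 0.90 (SE) with all libraries, −0.11 without Old tumor 1 and −0.27 without Old tumor 5. The remaining homeostatic ligands, Ccl25, Ccl27a, Ccl28 and Cxcl17, lay between −0.13 and 0.40, and counts of Ccl27a were fractional in 11 libraries.

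Of the ligand groups, the 2 membrane-anchored ligands varied least. Their median SD within an age was 0.225 on the log2 CPM scale, against 0.237 for all genes. Ccl27a, outside this group, was lower by itself, at 0.203. The median level of the 2 was 6.96 log2 CPM, against 2.48 for all tested ligands. Cxcl16 was at 127, 185 and 201 CPM in young and 118, 163 and 185 CPM in old, a log2 fold change of −0.17 ± 0.12 (SE), with an adjusted p of 0.455 in edgeR. Cx3cl1, the ligand of Cx3cr1, was at 78.3, 91.5 and 95.0 CPM in young and 76.1, 97.4 and 138 CPM in old, a log2 fold change of 0.16 ± 0.12 (SE). The ages overlapped for both genes, and Cx3cl1 was lowest in Old tumor 1.

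Receptors stayed within a narrower span of fold changes than ligands, from −0.83 to 0.49 on the log2 scale. Xcr1, which marks cross-presenting dendritic cells and binds Xcl1, was the lowest: 0.921, 2.69 and 4.07 CPM in young and 0.417, 1.04 and 2.89 CPM in old. Old tumors 1 and 5, at 2.79 and 2.89 CPM, lay above the young median and the other 4 old libraries below it. The log2 fold change was −0.83 ± 0.48 (SE), with an adjusted p of 0.339 in edgeR, against −2.17 for its ligand. The 8 markers of conventional type 1 dendritic cells summed to 292 to 400 CPM in young and 298 to 379 CPM in old. Of the 8, 7 were below 0, 0 passed in edgeR, and 1, Itgae, had an unadjusted p under 0.05 and passed in DESeq2, with a log2 fold change of −1.01 ± 0.30 (SE). The all-gene shares on the lower side were 10.4% at that unadjusted p and 5.78% in DESeq2. The sum was mostly Cadm1, at a mean of 257 CPM in young and 239 CPM in old, and the part of these markers in the Xcr1 value was not tested.

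The CC receptors included receptors of monocytes and macrophages. Ccr1 was at 21.2, 24.4 and 33.9 CPM in young and 14.4, 20.6 and 39.5 CPM in old, a log2 fold change of −0.15 ± 0.21 (SE), with an adjusted p of 0.720 in edgeR. The ages overlapped, with Old tumor 1 the highest of all libraries. Ccr2, the receptor of Ccl2, was also highest in Old tumor 1, and its log2 fold change was 0.41 with all libraries and −0.09 without that one. Counts of Ccr2 were fractional in all 12 libraries, so part of its reads was divided with another gene.

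Receptors of lymphocytes and mature dendritic cells were low. Ccr7 was at 3.52, 5.09 and 6.64 CPM in young and 2.25, 3.41 and 8.33 CPM in old, a log2 fold change of −0.32 ± 0.30 (SE), with an adjusted p of 0.577 in edgeR. Ccr9, a gut-homing receptor, was at 0.175, 0.578 and 0.822 CPM in young and 0.083, 0.280 and 0.691 CPM in old, a log2 fold change of −0.73 ± 0.51 (SE), with an adjusted p of 0.434 in edgeR. Cxcr6, the receptor of Cxcl16, was at 1.10, 2.54 and 4.30 CPM in young and 0.784, 1.56 and 3.04 CPM in old, a log2 fold change of −0.54 ± 0.38 (SE), with an adjusted p of 0.436 in edgeR. In all 3 the ages overlapped and 4 of 6 old libraries lay under the young median. Ccr8, the Ccl1 receptor, was untested, with counts of 2 to 20 in young and 0 to 9 in old. Cxcr3, the receptor of Cxcl9 and Cxcl10, had a log2 fold change of 0.16 ± 0.51 (SE), and Cxcr5, the Cxcl13 receptor, −0.17 ± 0.23 (SE).

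Among the widely expressed receptors, Cxcr4 was at 6.93, 11.6 and 14.6 CPM in young and 6.13, 11.4 and 22.3 CPM in old, a log2 fold change of 0.31 ± 0.29 (SE), with an adjusted p of 0.565 in edgeR. Cx3cr1, a receptor of monocytes and macrophages, was at 22.8, 36.3 and 45.2 CPM in young and 27.1, 29.4 and 48.0 CPM in old, a log2 fold change of −0.08 ± 0.18 (SE), with an adjusted p of 0.836 in edgeR. Old and young ranges overlapped for both. The atypical receptors, grouped here with Ccrl2, had a median log2 fold change of 0.23 over 5 genes with all libraries. Without Old tumor 1 their median was −0.13, with 1 above 0 and 4 below. Ackr3, the only one above 10 TPM, was at −0.01, Ackr2 at 0.29, Ackr4 at 0.23, Ccrl2 at −0.24 and Ackr1, carried by venular endothelium and red cells, at 0.49 ± 0.74 (SE). Without Old tumor 1, Ackr1 was at −0.30, Ackr4 at −0.03 and Ackr2 at 0.09. Counts of Ackr4 were fractional in all 12 libraries.

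Side by side, ligands and their receptors did not share one direction. Xcl1 and Xcr1 were both below 0, as were Cxcl5 and Cxcr2, and Cxcl16 and Cxcr6. Cxcl12 and Cxcr4 were both above 0. Cxcl9 and Cxcl10 were below 0 with Cxcr3 above it, Cxcl13 was above 0 with Cxcr5 below it, and Ccl2 was below 0 with Ccr2 above it. Without Old tumor 1, Cxcr3 was at −0.08 and Ccr2 at −0.09, so that these receptors then lay below 0 with their ligands. None of these genes was past the threshold with all libraries.

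Without Old tumor 1, 25 of 33 ligands and 15 of 17 receptors were below 0, with median log2 fold changes of −0.23 and −0.20. The median over all genes was then 0.00032. Because Old tumor 1 was picked for its high levels of these members, a downward shift was fixed in advance and is no test. Ccl11 went from 0.16 to −0.23, Ccl9 from 0.33 to −0.17 and Ccl5 from 0.06 to −0.15 on the log2 scale. Cxcr4 went from 0.31 to 0.10, Ccr1 from −0.15 to −0.38 and Ccr7 from −0.32 to −0.65. Group medians also went lower for the monocyte-attracting ligands, from −0.32 to −0.59, and the neutrophil-attracting ligands, from −0.45 to −0.76.

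**Figure D4:**
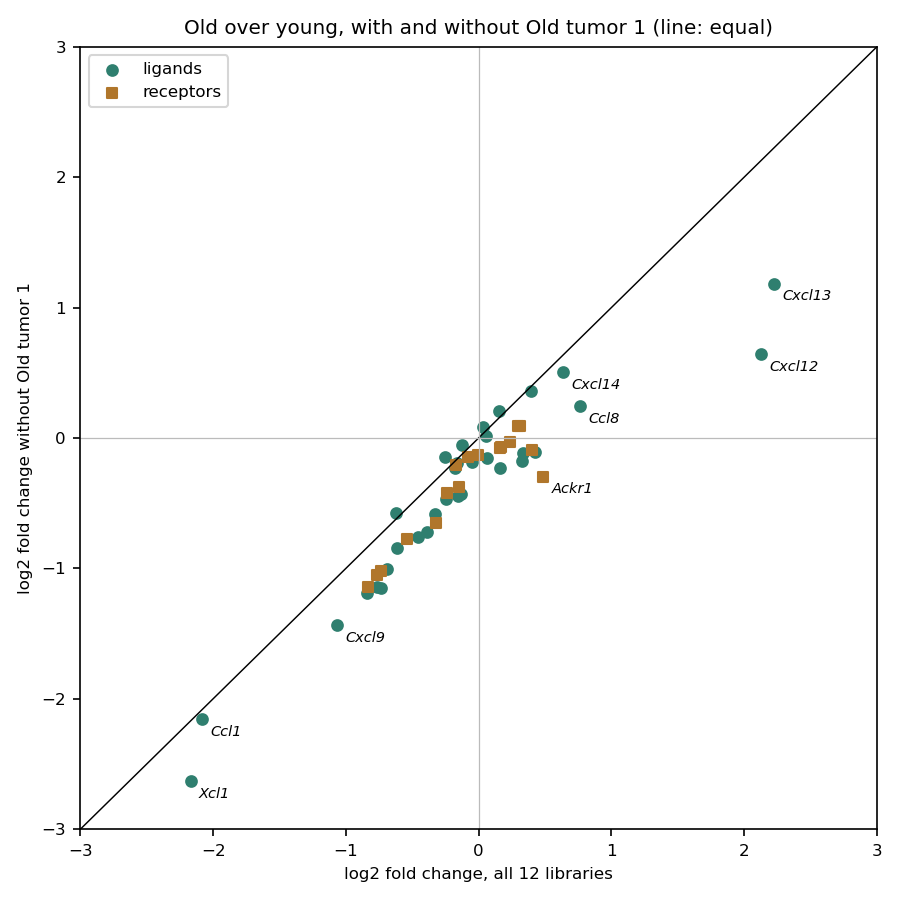
Log2 fold change, old over young, of the 50 tested members with all 12 libraries (horizontal axis) and without Old tumor 1 (vertical axis), ligands as circles and receptors as squares, the line marking equal values. Cxcl12 goes from 2.13 to 0.64 and Cxcl13 from 2.22 to 1.18, while Xcl1 goes from −2.17 to −2.63.

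By position, the chromosome 5 members held 8 of 9 genes below 0 (median log2 fold change −0.62, Cxcl13 the exception), against 8 of 13 on chromosome 11 (−0.17) and 7 of 11 on chromosome 9 (−0.15), where most receptors lie. Positions are from the GRCm38 annotation.

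Genes around the chemokine system mostly did not pass either. Of 16 transcription factors of chemokine induction, 11 were below 0, against 45.8% of all genes. In that list 1 fell, where 1.47% of all genes passed as lower in old. It was Cebpb, a factor of inflammatory gene induction, lower by 0.67 on the log2 scale (SE 0.16, adjusted p 0.0484 in edgeR). It was at 80.5, 95.5 and 158 CPM in young and 51.8, 64.7 and 78.7 CPM in old, so the ages did not overlap. That call was kept in 7 of 23 other settings, with adjusted p from 0.0026 to 0.109. Nfkbia, an NF-kB target and inhibitor, was at 46.0, 60.6 and 72.6 CPM in young and 37.3, 43.3 and 61.9 CPM in old, a log2 fold change of −0.38 ± 0.13 (SE), with an adjusted p of 0.133 in edgeR.

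In each of the other 6 lists 0 genes passed in edgeR. At an unadjusted p under 0.05 these lists held 1, 1, 2, 1, 0 and 0 genes in the order given next, against 21.1% of all genes. DESeq2 called 1 gene of them, Cd74, against 9.59% of the genes to which it gave an adjusted p. Of 5 chemokines outside the symbol rule, 2 were below 0, among them Mif, a chemokine-like cytokine that binds Cxcr2 and Cxcr4, at −0.43 ± 0.15 (SE), and Rarres2, the chemerin precursor, was at 0.72 ± 0.36 (SE). Of 8 tested chemoattractant receptors outside the rule, 3 were below 0, among them Cd74, the invariant chain and a Mif receptor, at −0.55 ± 0.17 (SE), while Fpr1, a formyl peptide receptor of neutrophils, was at 0.78 ± 0.46 (SE). Of 20 G protein and scaffold genes 8 were below 0, with Gna13 at 0.18 and Elmo1, part of the Rac activation that moves cells, at 0.47. Of 13 desensitisation and RGS genes 8 were below 0, with Arrb1, a beta-arrestin, at 0.45 and Rgs2 at −0.32. Of 9 tested chemokine-cleaving proteases 1 was below 0, with Mmp2 at 0.58 and Mmp8 at 0.27, and of 8 tested cytokine inducers 4 were, with Tgfb1 at −0.19 and Ltb at −0.56.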

How the data were processed

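Bulk RNA was sequenced from 12 tumor pieces, 6 young and 6 old. Per the submitters' processing notes, the tools were cutadapt 2.3, STAR 2.7.0d and RSEM 1.3.1, on build mm10. No source used here gives the annotation or the strand setting. The deposited tables hold the authors' expected counts and TPM values per gene. Expected counts were rounded to whole numbers and tested with edgeR 4.0.16 (quasi-likelihood, TMM, filterByExpr, R 4.3.3), with Benjamini-Hochberg adjustment over 16013 genes and a threshold of 0.05. Alternatives used DESeq2 1.42.0, and limma 3.58.1 on log2(TPM + 1) and log2(TPM + 0.1). CPM used library totals scaled by TMM. The edgeR script was tested on simulated data. The members and lists were chosen with earlier results of these data known. Values are given for the 8 ligands and 6 receptors with the smallest p, the 4 ligands and 3 receptors with the highest mean TPM, and the 2 genes of each pathway list with the smallest p. One receptor enters the counts and medians and is not reported here by itself. Cxcl9, Ccl2 and the others given by fold change alone, as well as Gzma, were described after their values were seen. Library totals of 17754645 to 24097599 counts leave members under 1 CPM with few counts each, and floors for a count of 0 use 3 counts and cover counting error only. Replicate numbers were checked for pairing: same-numbered libraries correlated at −0.23 to 0.14. The labels give no link between same-numbered libraries, and whether any share a batch was not tested.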

Additional observations from a re-analysis of the deposited data

Results flagged for a closer look

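In 50 groups of 6 libraries (each named member, Cxcl9, Ccl2, 2 summed levels and the library total, in each age), 8 held a library far from the others by Dixon's ratio. Chance flags about 1 in 20 groups where values are normal and groups independent. These values are untransformed and the summed ligand level contains Ccl6 and Cxcl5, so the 8 cannot be set against that rate. Old tumor 1 was the high library for 5 of them. It had 97.0 CPM of Cxcl12, with 13.9 CPM in the next old library, and 7.54 CPM of Cxcl13, with 1.87 CPM next. It had 179 CPM of Ccl6 with 68.8 CPM next, 160 CPM of Cxcl5 with 95.7 CPM next, and a summed ligand level of 1686 TPM with 937 TPM next.

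Young tumor 3 had 6.34 CPM of Ccl20, with 4.12 CPM in the next young library. Young tumor 2 was low in Cxcl9, at 10.6 CPM, with 26.7 CPM next. Old tumor 6 had the smallest library total, 17754645 counts, with 23275312 next.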

How the results depend on the processing

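The count of ligands past the threshold was 0 with edgeR and TMM, 1 with RLE size factors, 2 with DESeq2, 1 with a minimum of 1 CPM in 6 libraries, 2 with limma on log2(TPM + 1), 2 without Old tumors 1 and 5 together, and 0 to 2 when each library was left out in turn, the 2 coming without Old tumor 1. The count of receptors was 0 except for 1, Xcr1, without Old tumors 1 and 5, which are the old libraries highest in Xcr1. Over all genes the 362 calls became 1433 with DESeq2, 151 with no filter, 111 with a length offset, 742 without Old tumors 1 and 5, and 2 to 1106 with each library left out. Higher calls were 35.1% of the total with TMM, 51.5% with library totals alone, 13.5% with the length offset, and 85.8% and 87.6% on the TPM scales, where the all-gene median was 0.13 and 0.15. Directions turned, among others, for Ccl6 (−0.11 without Old tumor 1, −0.15 without Old tumors 1 and 5, and −0.11 to 0.47 with each library left out), Ccl8 (−0.079 without Old tumors 1 and 5) and Cx3cr1 (0.057 with log2(TPM + 1) and 0.062 with log2(TPM + 0.1)). The receptor median was 0.06 on both TPM scales. The cause was not tested. Over 50 members and 23 settings, 66 of 1142 values changed sign, in 22 members, among them Ccl21a, Ccr2, Ackr1, Ackr2, Ackr3, Ackr4, Ccl11, Cxcr3, Cxcr5 and Cxcl17.

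With the replicate block, 1 gene was called over all genes, 0 ligands and 0 receptors, with medians of −0.25 and −0.08. Same-numbered libraries correlated at 0.14, 0.03, 0.14, 0.01, −0.09 and −0.23, and not every library correlated best with its own number. Those numbered 3 did correlate best with each other.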

Other observations

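Cxcl11, another Cxcr3 ligand, was outside the members because the annotation lists it as a polymorphic pseudogene. It was at 0.241, 1.45 and 1.80 CPM (lowest, median and highest of 6) in young tumors and 0.248, 0.567 and 1.62 CPM in old tumors, with 5 of 6 old libraries under the young median. Its log2 fold change was −0.84 ± 0.51 (SE), with an adjusted p of 0.361 in edgeR's quasi-likelihood test.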
